A study of Mus musculus with 18 samples.

Results

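The genes described here are the matrix metalloproteinases (Mmp), the membrane proteases with a disintegrin domain (Adam), their secreted relatives with thrombospondin repeats (Adamts) and the tissue inhibitors of metalloproteinases (Timp). They were chosen by symbol alone: every protein-coding gene whose symbol is one of these 4 names followed by a number. There were 56 such genes among 22137 in the table of low-fat and high-fat tumours and 60 among 24778 in the table of hairpin tumours, 61 in either and 55 in both. Adamts19 stood only in the first table, and Adam3, Adam30, Mmp1b, Mmp21 and Timp4 only in the second. Enough counts for a test were found for 44 of them in each table.

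The tumours grew in the liver of wild-type mice after cells of MC38, a line from a mouse colon carcinoma, were injected into the spleen. Unmodified tumours came from mice fed low-fat chow (LFD, n = 5) or high-fat chow (HFD, n = 5). In the other experiment every mouse was on the high-fat diet, and the tumours are labelled as carrying a control hairpin (shCon, n = 4) or a hairpin against Yap (shYap, n = 4). Age and sex of the mice, the length of feeding, the vector and the cells that held the hairpin are not given in the sources used here. RNA of whole tumour tissue was sequenced, so cells of the host are part of every library, and fewer cells of a type cannot be told apart from less RNA per cell. Whether each library stands for an animal of its own is not stated in the labels, so p-values here cover only the variation from library to library.

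Matrix metalloproteinases are zinc enzymes that are made in a latent form and, once cleaved, cut collagens, laminins, proteoglycans and many signalling proteins. TIMP proteins sit in the active site of these enzymes and block them, and TIMP3 in particular also blocks ADAM and ADAMTS enzymes. ADAM proteases shed growth factors, cytokines and receptors from the cell surface, whereas ADAMTS proteases act on proteoglycans and procollagens of the matrix. In injured or fibrotic liver, stellate cells, fibroblasts and macrophages are known sources of both the enzymes and the inhibitors. The values below are RNA levels and do not measure enzyme activity.

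Totals were 17766207 to 18474191 estimated counts per library in the diet table and 17207214 to 21309950 in the other. Levels are given as CPM, counts scaled to library size with TMM factors. Yap1, the hairpin's target, was at 78.1, 82.4, 73.8 and 77.4 CPM in shCon tumours and at 71.6, 80.0, 81.4 and 70.5 CPM under the shYap label, a log2 fold change of -0.04 ± 0.11 (SE, edgeR adjusted p = 0.937). The knockdown was therefore not seen in RNA, and groups are named here by their labels. All 5 LFD libraries held Xist, the RNA that coats the inactive X chromosome of female cells, at 1406 to 2579 counts, against 1 to 6 in the HFD libraries, so diet and the source of Xist RNA cannot be told apart. The summed level of 10 hepatocyte markers ran from 9710 to 91500 CPM in LFD libraries and from 369 to 3350 CPM in HFD libraries, and 10 of 10 markers were called lower. That of 8 fibroblast markers was 2850 to 5460 against 6230 to 8330 CPM (3 of 8 called higher), and that of 8 T cell markers 34.8 to 116 against 12.1 to 43.7 CPM (8 of 8 called lower). The sum of 8 neutrophil markers was 50.4 to 77.4 against 16 to 25.7 CPM (4 of 8 called lower), and that of 5 Kupffer cell markers 46 to 210 against 8.8 to 57.5 CPM (3 of 5 called lower). Macrophage markers, 8 in number, summed to 1320 to 2880 CPM in LFD and 1850 to 2200 CPM in HFD libraries (0 of 8 called). The 8 hepatic stellate cell markers summed to 187 to 263 against 223 to 284 CPM (1 called higher and 1 lower). For 6 endothelial markers the sums were 86 to 231 against 84.7 to 115 CPM (2 of 6 called lower). The 7 epithelial markers in the table summed to 54.3 to 543 CPM in LFD and 188 to 359 CPM in HFD libraries, with Krt20 and Vil1 under 1 CPM in both groups. The parts of Xist-bearing cells, liver tissue, fibroblasts and immune cells in the results below were not tested. Values without LFD replicates 1 and 5, the 2 libraries of most hepatocyte RNA, are given beside some results, and the other LFD libraries still held 9710 to 20500 CPM of hepatocyte markers.

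In HFD against LFD tumours all 3 measured TIMP genes, 4 of 6 tested ADAMTS proteoglycanases and 4 of 8 ADAM genes with an active protease domain rose. The MMPs were split, with log2 fold changes of 2.93 for Mmp28, 3.14 for Mmp7 and -1.88 for the collagenase Mmp13. Of the 44 members tested, 15 rose and 4 fell at an edgeR p under 0.05 after Benjamini-Hochberg adjustment over all genes tested, which is 43.2% of them. With a log2 fold change of at least 1 in size as well, 14 members passed (31.8%), against 16.2% of all genes. Across all 16340 genes tested, 41.1% passed at that p, 19.4% higher and 21.6% lower. The share of members past the threshold was thus near that of all genes, and the members' split leaned to higher levels (34.1% of them higher and 9.09% lower). The median log2 fold change was 0.26 over the members tested, -0.00176 over all genes, 0.22 over 17 MMP, 0.08 over 12 ADAM, 0.53 over 12 ADAMTS and 1.06 over 3 TIMP genes. All 12 tested ADAMTS genes had a positive value, including the 7 that did not pass. In 13 members (29.5%) the HFD and LFD libraries did not overlap, 11 of them higher in HFD, against 30.6% of all genes, 15.8% higher and 14.8% lower.

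HFD replicates 1 and 2 were closer to each other over all genes (r = 0.9913 across genes) than either was to another HFD library, and so were replicates 3 and 4 (r = 0.9928), with the other HFD pairs at 0.9699 to 0.9859. The labels do not tie these libraries to each other. With each of the 2 pairs summed and counted as 1 library, 25% of all genes and 12 of 47 members tested passed. In that fit 9 of the 19 members called above lost the call: Timp3, Mmp14, Mmp15, Mmp27, Adam8, Adam11, Adam12, Adam15 and Adamts8 (edgeR adjusted p = 0.0519 to 0.13). Timp1, Timp2, Mmp7, Mmp13, Mmp28, Adam17, Adamts1, Adamts4, Adamts6 and Adamts15 passed in both fits. Adamts13 and Adamts17, not tested in the main fit, passed as lower in the summed fit (-3.003 and -3.335, edgeR adjusted p = 0.0393 and 0.0191).

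**Figure D1:**
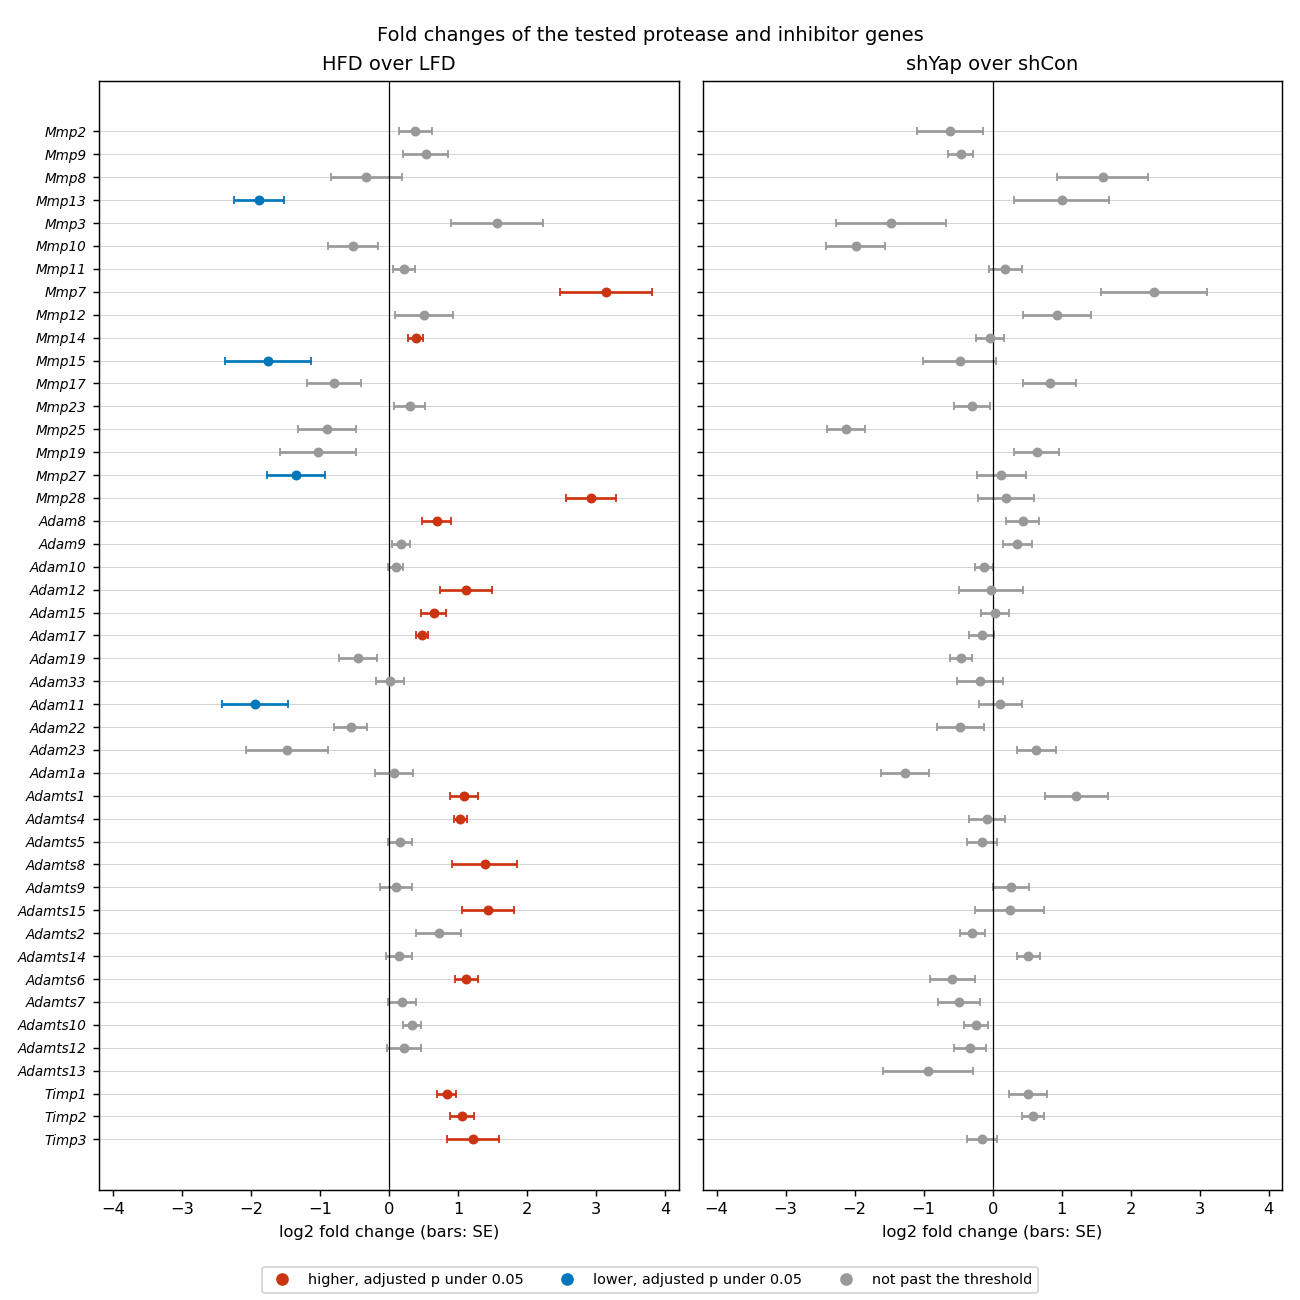
Log2 fold change of each tested member, HFD over LFD on the left and the libraries labelled shYap over shCon on the right, with bars for 1 standard error. Red and blue points mark genes called higher and lower. On the left all TIMP and ADAMTS points lie at or right of 0 and MMP points lie on both sides, and on the right no point is coloured.

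Timp2 was the most abundant member per length of transcript in every group. Its protein blocks many metalloproteinases and also takes part in the activation of pro-MMP2 on the cell surface. The LFD libraries held 245, 474, 287, 361 and 270 CPM, and the HFD libraries 618, 681, 726, 669 and 712 CPM. The groups were well apart, and the HFD libraries were closely alike. The log2 fold change was 1.06 ± 0.17 (SE, edgeR adjusted p = 0.00124), and it was 0.88 (adjusted p = 0.00151) without LFD replicates 1 and 5. Timp2 lies on chromosome 11 (chr11:118301069-118355740, minus strand). The 300 bases around its start, from 250 before to 50 after in RefSeq on GRCm38.p6, are shown because this is the inhibitor gene that carries most of the family's RNA. They span chr11:118355362-118355661 on the minus strand. Capitals mark its 25 CpG pairs, and the window is 68.7% G and C.
Timp2: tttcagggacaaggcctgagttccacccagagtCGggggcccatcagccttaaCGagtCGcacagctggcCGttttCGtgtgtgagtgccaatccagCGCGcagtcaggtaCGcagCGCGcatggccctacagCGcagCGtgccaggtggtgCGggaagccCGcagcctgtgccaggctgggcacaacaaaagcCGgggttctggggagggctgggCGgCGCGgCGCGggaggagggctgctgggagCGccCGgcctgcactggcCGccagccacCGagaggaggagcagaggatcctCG

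Timp1, a secreted inhibitor that fibroblasts and immune cells make on stimulation, was at 22.4, 20.4, 21.5, 25.4 and 17.9 CPM in LFD and at 33.1, 41.8, 31.5, 35.1 and 50.4 CPM in HFD libraries. The lowest HFD library lay above the highest LFD library, and the log2 fold change was 0.83 ± 0.14 (edgeR adjusted p = 0.00181). Timp1 lies on the X chromosome (chrX:20870166-20874735, plus strand) and overlaps Syn1 on the opposite strand. The overlap is one of whole gene spans and library strand is not given, so whether the pair shares reads was not tested. Syn1 itself rose by 0.83 ± 0.15 (edgeR adjusted p = 0.00229) from 10.7 ± 2.14 CPM (SD, n = 5). The RefSeq window of Timp1 on GRCm38.p6 (chrX:20869916-20870215, plus strand) is shown beside that of Timp2 because it alone among the TIMP windows held GGAATG, the core letters bound by TEAD factors, through which Yap acts. Capitals mark that match.
Timp1: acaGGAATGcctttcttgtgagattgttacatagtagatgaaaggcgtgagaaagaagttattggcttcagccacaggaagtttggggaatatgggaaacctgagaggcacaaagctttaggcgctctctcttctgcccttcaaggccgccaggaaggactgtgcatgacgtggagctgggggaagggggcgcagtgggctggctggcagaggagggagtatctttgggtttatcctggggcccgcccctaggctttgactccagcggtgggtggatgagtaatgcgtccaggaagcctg

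Timp3, whose protein binds to the matrix and blocks ADAM17 and aggrecan-cleaving ADAMTS enzymes, was at 42.6, 16.0, 46.3, 12.6 and 49.6 CPM in LFD and at 64.4, 97.1, 63.2, 83.7 and 79.6 CPM in HFD libraries. LFD replicates 2 and 4 were low, and no LFD library reached the HFD range. The log2 fold change was 1.22 ± 0.38 (edgeR adjusted p = 0.027). The call was lost without HFD replicate 2, 4 or 5 (adjusted p = 0.0575, 0.0517 and 0.0507). It was also lost with the closest HFD libraries summed (1.23, adjusted p = 0.0786). Without LFD replicates 1 and 5 the log2 fold change was 1.66 (adjusted p = 0.0242). Timp4 was at 0 counts in all shCon libraries and at 4 counts in all in those labelled shYap.

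Compared per kilobase of exon, so that genes can be set side by side, Timp2 stood at 84.0 ± 23.7 CPM per kb in LFD and 175 ± 10.8 in HFD tumours (SD, n = 5). Next in HFD came Mmp9 at 63.3 ± 27.4, Mmp2 at 59.1 ± 11.8, Mmp14 at 50 ± 2.06 and Timp1 at 43.2 ± 8.77 CPM per kb. These last 4 did not differ beyond their spread from their neighbours in that order. The same 4 genes and Timp2 were among the 7 highest members in LFD, where Mmp2 was at 45.3 ± 14.6 and Mmp9 at 43.9 ± 15.2 CPM per kb. Taken over all members, the TIMP genes made up 27.3 ± 2.83% of the summed per-length level in LFD and 37.7 ± 1.72% in HFD tumours, and the MMP genes 39.3 ± 3.52% and 33.7 ± 3.64%. The ratio of summed TIMP to summed MMP level was 0.554, 0.865, 0.600, 0.695 and 0.809 in the LFD libraries and 1.08, 1.04, 1.31, 1.30 and 0.928 in the HFD libraries. The order of the sums was thus turned round in 4 of 5 HFD libraries, and the groups did not overlap. The ratio is formed within a library and does not depend on the scaling between libraries, and Timp2 alone held 20.3 ± 3.67% and 29.1 ± 2.37% of the summed level.

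**Figure D2:**
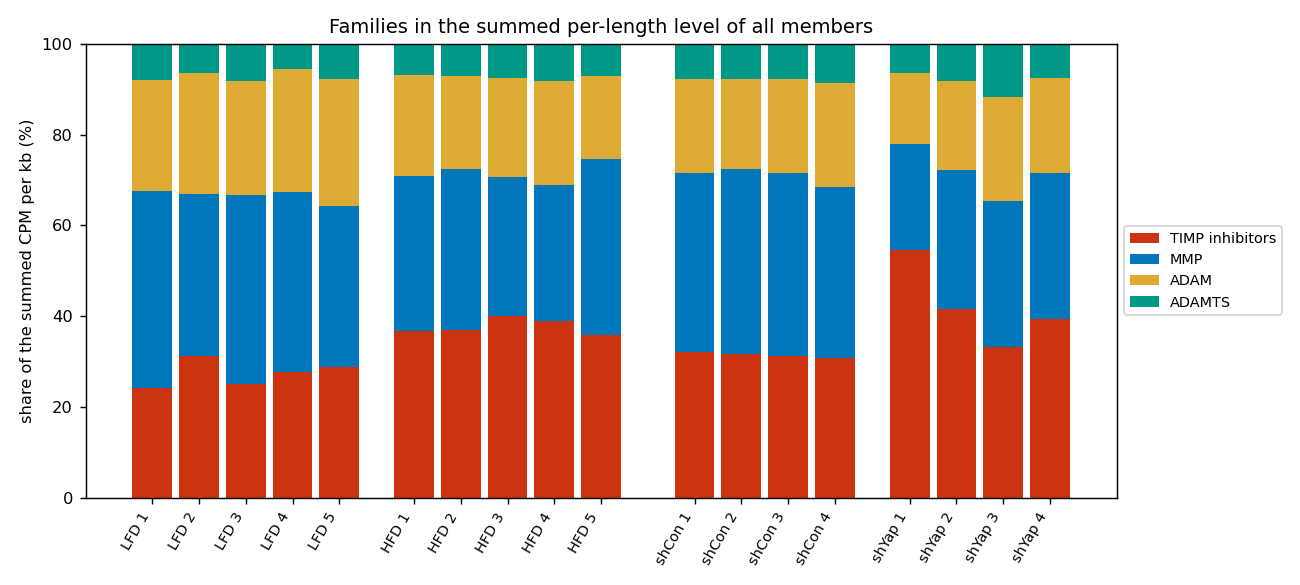
Share of each family in the summed CPM per kilobase of all members, 1 bar per library. The red TIMP segment covers 24.1 to 31.1% in LFD, 35.9 to 40.1% in HFD, 30.8 to 32.1% in shCon and 33.2 to 54.5% in libraries labelled shYap.

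The gelatinases Mmp2 and Mmp9, which cut denatured collagen and basement membrane collagen, did not pass the test. Mmp2 was at 80.6 to 200 CPM in LFD and 162 to 267 CPM in HFD libraries (log2 fold change 0.38 ± 0.23, edgeR adjusted p = 0.212). Mmp9 was at 91.5 to 215 and 129 to 362 CPM (0.53 ± 0.33, adjusted p = 0.224), with HFD replicates 3 and 4 inside the LFD range. Mmp14, the membrane-anchored enzyme that activates pro-MMP2 together with TIMP2, was at 215, 260, 242, 254 and 169 CPM in LFD and at 290, 307, 289, 289 and 315 CPM in HFD libraries. It rose by 0.39 ± 0.11 on the log2 scale (adjusted p = 0.0201), or 0.26 (adjusted p = 0.00837) without LFD replicates 1 and 5, and the call was lost with the closest HFD libraries summed (0.41, adjusted p = 0.0767). The HFD libraries were tightly grouped above all LFD libraries.

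Mmp28, or epilysin, an enzyme first known from skin and testis, showed the clearest rise among the MMPs. It was at 1.44, 2.07, 1.42, 1.31 and 4.64 CPM in LFD and at 11.8, 16.8, 21.1, 18.5 and 13.5 CPM in HFD libraries, or 21 to 57 against 236 to 419 counts. LFD replicate 5 was the highest of its group and still far below the lowest HFD library. The log2 fold change was 2.93 ± 0.36 (edgeR adjusted p = 0.000378), and 3.36 (adjusted p = 3.89e-05) without LFD replicates 1 and 5. Mmp28 overlaps 1700020L24Rik, at 1.68 CPM on average, on the opposite strand. Its window at chr11:83462991-83463290 (minus strand, RefSeq on GRCm38.p6), with 20 CpG pairs in capitals, is shown as the start region of the member with the smallest adjusted p among the MMPs.
Mmp28: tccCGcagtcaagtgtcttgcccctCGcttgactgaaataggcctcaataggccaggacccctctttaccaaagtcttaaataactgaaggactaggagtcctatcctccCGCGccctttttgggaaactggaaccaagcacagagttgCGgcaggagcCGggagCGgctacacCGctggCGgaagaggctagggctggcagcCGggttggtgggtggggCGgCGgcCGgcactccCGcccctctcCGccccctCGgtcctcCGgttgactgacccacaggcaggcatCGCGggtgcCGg

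The membrane-anchored Mmp15, known to be made by many epithelia, had a value of -1.76 ± 0.62 (edgeR adjusted p = 0.0461). It was at 34.3, 6.37, 16.8, 5.76 and 46.6 CPM in LFD and at 8.97, 10.6, 3.58, 3.72 and 5.48 CPM in HFD libraries. LFD replicates 1 and 5, with hepatocyte marker sums of 51400 and 91500 CPM, were the highest, and LFD replicates 2 and 4 lay within the HFD range. Without replicates 1 and 5 the value was -0.56 (adjusted p = 0.398), and 7 of the 10 fits that left out 1 library lost the call (adjusted p = 0.0627 to 0.115). Mmp19, chosen for mention after its values were seen, was at 40.7, 11.3, 15.5, 9.69 and 60.7 CPM in LFD and at 6.35 to 19.8 CPM in HFD libraries (-1.03 ± 0.55, adjusted p = 0.16). It was likewise highest in LFD replicates 1 and 5, and its value was 0.16 (adjusted p = 0.744) without them.

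**Figure D3:**
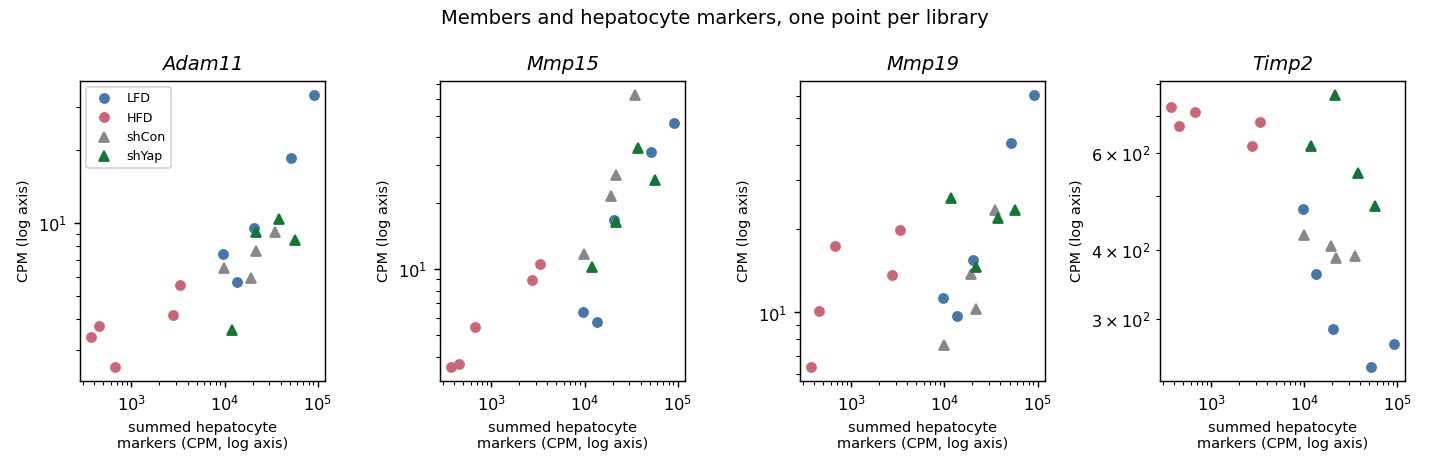
Level of Adam11, Mmp15, Mmp19 and Timp2 against the summed level of 10 hepatocyte markers, 1 point per library, in CPM on log axes, with circles for the diet table and triangles for the hairpin table. LFD replicates 1 and 5 lie furthest right among the diet libraries, with the highest LFD levels of the first 3 genes, and the shCon and shYap points overlap along the horizontal axis but not in Timp2 level.

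Mouse chromosome 9 holds a cluster of Mmp genes, among them collagenases, stromelysins and the macrophage metalloelastase, whose starts lie at -732.1 to -312.5 kb along the chromosome from that of Yap1. Of 7 cluster genes tested, Mmp7 rose, Mmp13 and Mmp27 fell, and Mmp3, Mmp8, Mmp10 and Mmp12 did not pass. Of all genes tested 41.1% passed, 19.4% higher and 21.6% lower, and the cluster was not tested against that share. The promoters of several collagenases and stromelysins are known to bind AP-1, a dimer of Jun and Fos proteins that growth factors and inflammatory signals switch on. In RefSeq windows of 300 bases on GRCm38.p6, TGAGTCA or its reverse complement TGACTCA, searched on both strands, occurred in 5.2% of 32851 windows, in 6 of 10 windows of the cluster genes and in 1 of 33 windows of the other members. The TEAD letters, GGAATG or CATTCC, occurred in 14.7% of all windows, in none of those of the cluster genes and in 4 of the 33 others. Matches of the 2 motifs can overlap only at their ends. The matches with 27 bases on each side are shown because these neighbours share the letters, and of those that passed the test Mmp7 rose and Mmp13 fell. Capitals mark the match, all on chromosome 9. The stretches span chr9:7272452-7272512 for Mmp13, chr9:7347303-7347363 for Mmp12, chr9:7388086-7388146 (minus strand) for Mmp1b, chr9:7445749-7445809 for Mmp3, chr9:7502252-7502312 for Mmp10 and chr9:7692000-7692060 for Mmp7.
Mmp13: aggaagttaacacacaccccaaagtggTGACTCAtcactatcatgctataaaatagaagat
Mmp12: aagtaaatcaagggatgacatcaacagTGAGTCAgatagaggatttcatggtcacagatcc
Mmp1b: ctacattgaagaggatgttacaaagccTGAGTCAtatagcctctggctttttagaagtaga
Mmp3: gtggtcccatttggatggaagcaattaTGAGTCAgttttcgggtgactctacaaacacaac
Mmp10: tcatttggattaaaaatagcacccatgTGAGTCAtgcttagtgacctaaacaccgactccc
Mmp7: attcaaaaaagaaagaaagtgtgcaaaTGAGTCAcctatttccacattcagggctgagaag
The match began 35 bases before the start in Mmp13, 44 in Mmp12, 46 in Mmp3, 63 in both Mmp10 and Mmp7, and 93 in Mmp1b. Each stretch of 61 bases held no or 1 CpG pair at 37.7 to 44.3% G and C. The full 300-base windows of the cluster genes held 0 to 7 CpG pairs at 37.7 to 52% G and C. Those of Timp2 and Mmp28, of the same length, held 25 and 20 pairs. Mmp8 and Mmp27 had no match in their windows. Mmp12 and Mmp7 each also had another window without a match. For Mmp12 that is the window at the start of the gene (chr9:7344147-7344446), and the match lies in the one at chr9:7347124-7347423.

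Within the cluster Mmp13, the main interstitial collagenase of rodents, was at 9.20, 6.48, 6.38, 13.9 and 3.74 CPM in LFD and at 1.79, 1.67, 2.47, 3.32 and 1.52 CPM in HFD libraries. It fell by 1.88 ± 0.36 on the log2 scale (edgeR adjusted p = 0.00272) with no overlap, and by 2.03 (adjusted p = 0.00134) without LFD replicates 1 and 5. Mmp7, or matrilysin, a small enzyme of epithelia, was at 3, 0, 5, 0 and 0 counts in LFD and at 20, 24, 14, 12 and 20 counts in HFD libraries. Its log2 fold change was 3.14 ± 0.67 (adjusted p = 0.00473), from 8 counts over the LFD group. Both groups were thus near the limit of detection, at 0.0957 ± 0.133 and 0.899 ± 0.244 CPM. Mmp27, a little-studied relative of the stromelysins, went from 1.05 ± 0.23 to 0.410 ± 0.264 CPM (-1.35 ± 0.42, adjusted p = 0.0263), with overlapping libraries, and leaving out LFD replicate 1 or HFD replicate 4 or 5 lost the call (adjusted p = 0.0521 to 0.0627), as did leaving out LFD replicates 1 and 5 together (adjusted p = 0.0592).

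**Figure D4:**
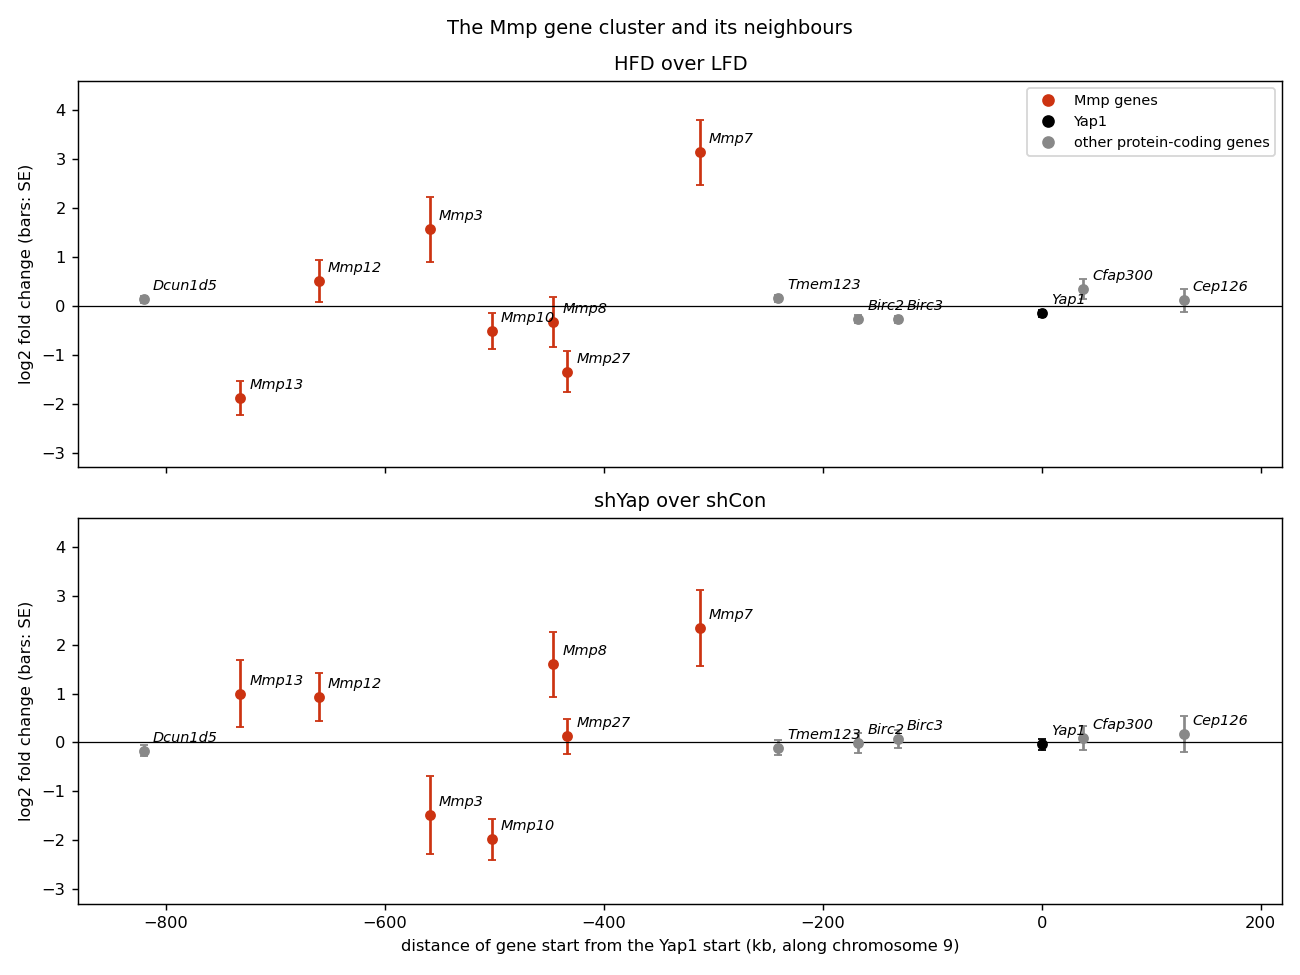
Log2 fold change, with bars for 1 standard error, of tested genes along chromosome 9, placed by the distance of their start from the Yap1 start in kilobases, for HFD over LFD above and the libraries labelled shYap over shCon below. In HFD the Mmp points run from -1.88 for Mmp13 to 3.14 for Mmp7, while Yap1 and its other neighbours lie between -0.28 and 0.35.

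The genes next to the cluster moved little. Yap1 was at 110 ± 9.36 CPM in LFD and 99.5 ± 3.66 CPM in HFD tumours (-0.15 ± 0.07, edgeR adjusted p = 0.122). Birc2 and Birc3, which encode inhibitors of cell death and lie between Mmp7 and Yap1, fell by 0.27 ± 0.08 and 0.28 ± 0.07 on the log2 scale (adjusted p = 0.0266 and 0.0133).

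Among the ADAM genes with an active protease domain, Adam8, Adam12, Adam15 and Adam17 rose in HFD tumours, and none of the 8 tested fell. Over all genes tested 19.4% rose and 21.6% fell, and this small class was not tested against those shares. Adam17, the sheddase of TNF and of EGF receptor ligands, was at 93.4, 99.6, 106, 118 and 86.5 CPM in LFD and at 136, 145, 143, 142 and 137 CPM in HFD libraries. The HFD libraries lay close together above all LFD libraries, and the log2 fold change was 0.48 ± 0.09 (edgeR adjusted p = 0.0021). Adam10, the related sheddase of Notch receptors and cadherins, was at 149 ± 23.9 and 159 ± 10.1 CPM (SD, n = 5), a difference of 0.10 ± 0.11 that did not pass (adjusted p = 0.525). Whether the 2 sheddases responded differently was not tested. Adam12, known from tumour stroma and activated stellate cells, was at 7.55, 2.54, 10.8, 3.56 and 7.49 CPM in LFD and at 13.1, 18.6, 9.42, 10.5 and 17.3 CPM in HFD libraries. LFD replicate 3 lay inside the HFD range, and the call (1.11 ± 0.38, adjusted p = 0.0367) was lost without any of LFD replicates 1 and 4 or HFD replicates 1, 2 and 5 (adjusted p = 0.058 to 0.0822), and without LFD replicates 1 and 5 together (adjusted p = 0.066). Adam8, a protease of myeloid cells, was at 25.8 ± 7.86 and 41.8 ± 7.19 CPM and rose by 0.70 ± 0.21 on the log2 scale (adjusted p = 0.0236). Leaving out LFD replicate 1 (adjusted p = 0.0567) or HFD replicate 1, 2 or 5 (adjusted p = 0.0519 to 0.0547) lost that call. Adam15 went from 104 ± 29.8 to 163 ± 8.24 CPM (0.65 ± 0.18, adjusted p = 0.0157), and this call was lost with the closest HFD libraries summed (adjusted p = 0.0645). Adam8 and Adam15 were chosen for mention after their values were seen.

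The ADAM proteins that lack a working protease site, Adam11, Adam22 and Adam23, serve as adhesion proteins of nerve cells. Adam11 was at 18.4, 7.46, 9.54, 5.71 and 33.7 CPM in LFD and at 4.19, 5.56, 3.38, 3.77 and 2.54 CPM in HFD libraries. LFD replicates 1 and 5 were again the highest, and the lowest LFD library barely cleared the highest HFD library. The log2 fold change was -1.94 ± 0.48 (edgeR adjusted p = 0.0099), and -0.94 (adjusted p = 0.0129) without those 2 libraries. The call was lost with the closest HFD libraries summed (adjusted p = 0.0519). Of the ADAM genes known mainly from testis and sperm, 1 of 5 in the diet table, Adam1a, had enough counts to be tested.

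The ADAMTS proteoglycanases cleave aggrecan, versican and related proteoglycans, and 4 of the 6 tested rose in HFD tumours. Over all genes tested 19.4% rose, and this small class was not tested against that share. Adamts4 was at 19.0, 18.2, 20.4, 17.6 and 17.8 CPM in LFD and at 30.4, 37.2, 39.6, 42.4 and 41.3 CPM in HFD libraries. It had the smallest adjusted p of all members (log2 fold change 1.04 ± 0.10, edgeR adjusted p = 0.000128). Adamts1 was at 23.8, 30.9, 34.7, 15.6 and 26.0 CPM in LFD and at 43.6, 50.7, 60.9, 67.5 and 57.0 CPM in HFD libraries (1.09 ± 0.20, adjusted p = 0.00243). For both genes every HFD library was above every LFD library. Adamts15 went from 2.02 ± 0.998 to 5.49 ± 2.31 CPM (1.44 ± 0.38, adjusted p = 0.0126), with LFD replicate 1 inside the HFD range. Adamts8 was low, at 38 counts over the LFD and 117 over the HFD group (1.39 ± 0.47, adjusted p = 0.039), and 7 of the 10 fits that left out 1 library lost that call (adjusted p = 0.0629 to 0.0942), as did the fit without LFD replicates 1 and 5 (adjusted p = 0.117). The values of Adamts5 and Adamts9 were 0.16 and 0.11 and did not pass.

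Among the other ADAMTS genes Adamts6, a relative of the fibrillin-binding Adamts10, rose by 1.12 ± 0.17 on the log2 scale (edgeR adjusted p = 0.000967). It was at 10, 6.32, 7.36, 5.39 and 7.65 CPM in LFD and at 12.5, 16.1, 17.3, 17.4 and 16.7 CPM in HFD libraries. Its lowest HFD library was above all LFD libraries. Neither procollagen N-proteinase tested, Adamts2 or Adamts14, passed (0.72 ± 0.32 and 0.15 ± 0.19). Adamts13, which cleaves von Willebrand factor and is made by hepatic stellate and endothelial cells, and Adamts17, a matrix protease of little-known function, fell under the minimum count of the test. They were chosen for mention after their values were seen. Adamts13 was at 29, 6, 31, 10 and 40 counts in LFD and at 4, 9, 2, 2 and 2 counts in HFD libraries, and Adamts17 at 23, 17, 16, 15 and 1 against 2, 2, 1, 2 and 1 counts. With all genes tested their log2 fold changes were -2.93 (adjusted p = 0.00836) and -3.28 (adjusted p = 0.00279). The 12 untested members of the diet table had group means of at most 1.55 CPM.

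**Figure D5:**
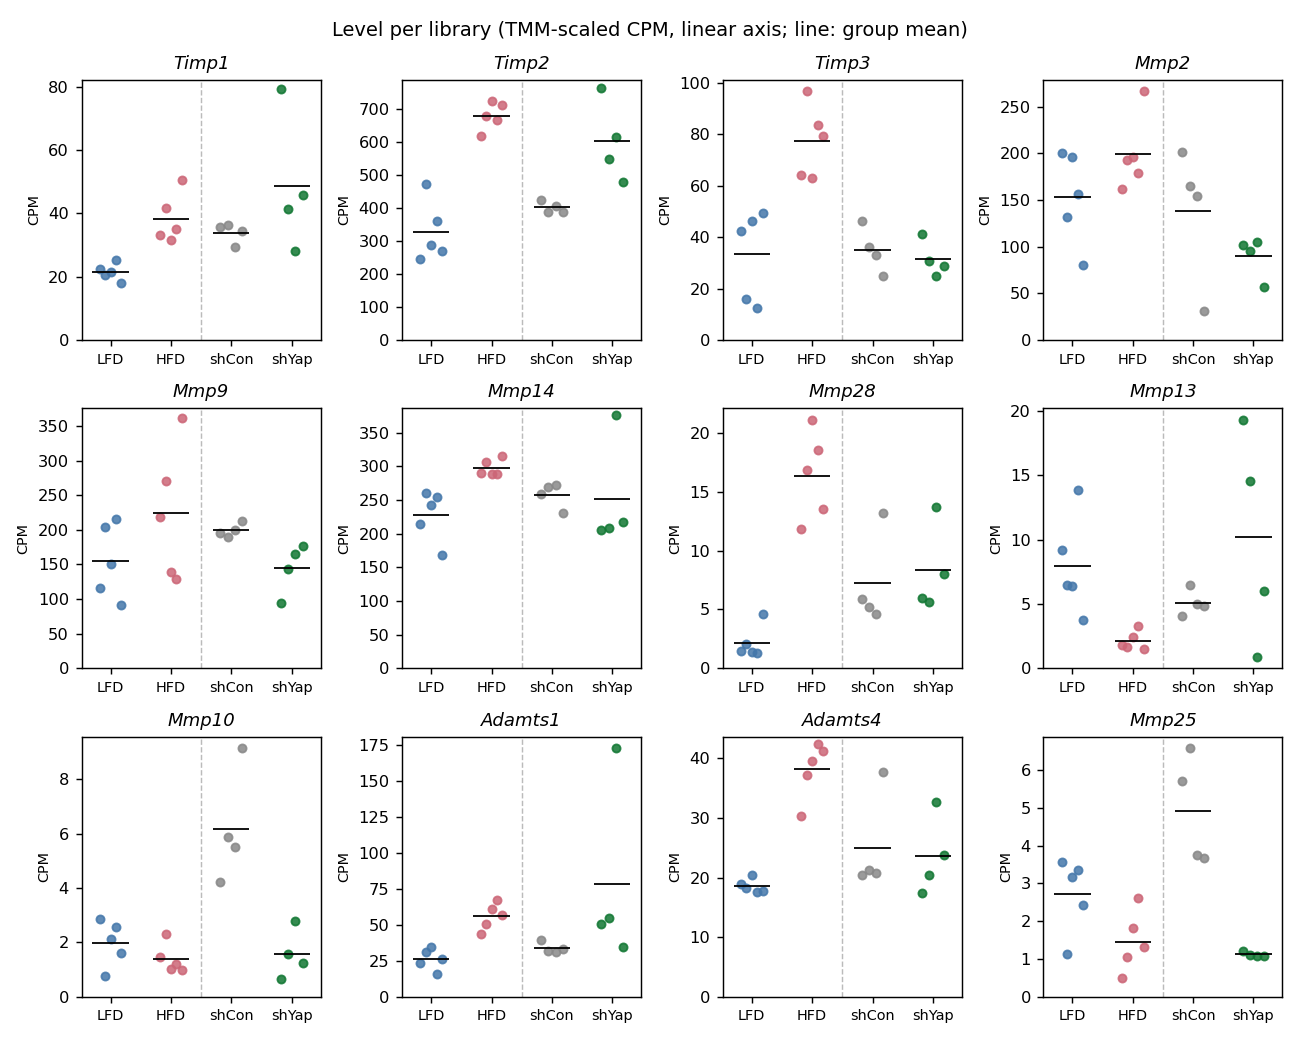
Level of 12 members in CPM on linear axes, 1 point per library and a line at the group mean, with LFD and HFD left of the dashed line and shCon and shYap right of it. Each TIMP gene, Mmp14, Mmp28, Adamts1 and Adamts4 is higher in every HFD library than in any LFD library, and Timp2, Mmp9, Mmp10 and Mmp25 separate the shCon from the shYap libraries.

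The rest of the pathway was taken from lists of enzymes, inhibitors and substrates. Of all genes tested in HFD against LFD, 41.1% passed, 19.4% higher and 21.6% lower. The counts in these short lists, here and in the next 2 paragraphs, were not tested against that share. Of 5 proteoglycan substrates tested, Dcn, Bgn and Vcan rose, by 1.11 ± 0.18, 0.72 ± 0.18 and 0.81 ± 0.20 on the log2 scale (edgeR adjusted p = 0.00149, 0.00901 and 0.0097), and none fell. Decorin, biglycan and versican are core proteins made chiefly by fibroblasts, and Dcn is also one of the fibroblast markers above. Among 17 matrix-degrading enzymes other than the members, 6 rose and 3 fell: the serine proteases Htra1 and Htra3 rose by 1.17 ± 0.14 and 1.66 ± 0.25, and the heparanase gene Hpse fell by 1.20 ± 0.18 (adjusted p = 0.000315, 0.000963 and 0.00102). Of 5 ADAMTS-like genes tested, Adamtsl4 and Adamtsl5 rose (0.98 ± 0.26 and 0.71 ± 0.21, adjusted p = 0.014 and 0.0206).

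In plasminogen activation, which supplies the plasmin that can activate latent MMPs, 3 of 9 genes rose and 2 fell. The genes that fell were Plg and Serpinf2, which encode plasminogen and the plasmin inhibitor α-antiplasmin, with log2 fold changes of -4.74 ± 0.995 and -4.38 ± 0.871 (edgeR adjusted p = 0.00484 and 0.00379). Both are products of hepatocytes, whose markers were lower in HFD libraries. Serpini1, a serpin that blocks tissue plasminogen activator, rose by 1.67 ± 0.27 (adjusted p = 0.00133). Of 8 further inhibitors and inducers, A2m rose (2.04 ± 0.48, adjusted p = 0.00791), and Pzp and Tfpi2 fell (-3.85 ± 1.03 and -2.93 ± 0.64, adjusted p = 0.0144 and 0.00565).

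Of 12 activators and partners of the sheddases, 2 rose and 6 fell. Tspan17 and Tspan33, tetraspanins that escort ADAM10 to the cell surface, went in opposite directions, with Tspan17 at 1.44 ± 0.09 and Tspan33 at -2.54 ± 0.35 (edgeR adjusted p = 1.93e-05 and 0.000595). Tspan17 stood at 22.1 ± 2.67 CPM in LFD and 59.8 ± 3.73 CPM in HFD tumours (SD, n = 5). Frmd8, which keeps the partner of ADAM17 at the cell surface, fell by 0.96 ± 0.16 (adjusted p = 0.00156) while Adam17 rose. Of 7 shed growth factors and cytokines tested, Tnf fell (-1.02 ± 0.37, adjusted p = 0.0473) and none rose.

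Between the libraries labelled shYap and shCon no member passed the threshold, and neither did any of the 16571 genes tested (0% in edgeR). At an unadjusted p under 0.05 there were 11 members (25%), 6 higher and 5 lower, against 10.9% of all genes, 4.76% higher and 6.13% lower. DESeq2 called 410 genes (2.47%) and 4 members: Timp2 at 0.59 (adjusted p = 0.035), Mmp25 at -2.13 (adjusted p = 3.32e-07), Mmp10 at -1.98 (adjusted p = 0.00107) and Adam1a at -1.27 (adjusted p = 0.0316). In limma voom 0 genes passed. The median edgeR log2 fold change was -0.06 over the members tested and 0.03 over all genes. The libraries of 6 members (13.6%) did not overlap, 1 higher and 5 lower under the shYap label, against 6.57% of all genes, 2.61% higher and 3.96% lower.

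Mmp25, a membrane-anchored enzyme known as leukolysin from neutrophils, had the smallest p of the members. It was at 5.71, 6.58, 3.75 and 3.68 CPM in shCon libraries and at 1.22, 1.11, 1.08 and 1.09 CPM in those labelled shYap, or 76 to 138 against 19 to 24 counts. The shYap libraries were almost equal and all far below the shCon libraries. The log2 fold change was -2.13 ± 0.28 (edgeR adjusted p = 0.149, or 0.0309 without shCon replicate 4). The 8 neutrophil markers summed to 45.5 to 107 CPM in shCon and 41.7 to 134 CPM in shYap libraries, overlapping ranges. The 8 T cell markers did not overlap, at 40.2 to 96.8 CPM in shCon and 19.6 to 31 CPM in shYap libraries, though 0 of 8 passed, and the part of T cells in this table's results was not tested. In the diet table Mmp25 was at 1.14 to 3.57 CPM in LFD and 0.498 to 2.62 CPM in HFD libraries and did not pass (adjusted p = 0.114).

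Mmp10, or stromelysin-2, one of the cluster genes with an AP-1 match, was at 4.21, 5.87, 5.51 and 9.15 CPM in shCon and at 0.659, 1.57, 2.78 and 1.25 CPM in shYap libraries (log2 fold change -1.99 ± 0.43, edgeR adjusted p = 0.158). The groups did not overlap, unlike those of its neighbours. Mmp3 was at 38.9 CPM in shCon replicate 4 against 6.11 to 6.91 CPM in the other shCon libraries, and at 0.912 to 9.63 CPM in shYap libraries (-1.48 ± 0.80, adjusted p = 0.57). Mmp13 spread from 0.907 to 19.3 CPM under the shYap label, with shCon at 4.06 to 6.49 CPM. Mmp12, the macrophage elastase, was at 2.40 to 6 CPM in shCon and 3.52 to 15.9 CPM in shYap libraries. Mmp7 was at 7, 1, 2 and 13 counts in shCon and at 11, 12, 37 and 46 counts in shYap libraries (2.34 ± 0.77, adjusted p = 0.317). Mmp3, Mmp8 and Mmp12 were chosen for mention after their values were seen.

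Of the 44 members tested, Timp2 was the only one whose libraries labelled shYap all lay above the shCon libraries. They held 764, 550, 617 and 480 CPM, against 426, 387, 407 and 389 CPM in shCon libraries (log2 fold change 0.58 ± 0.16, edgeR adjusted p = 0.216). Hepatocyte marker sums overlapped between these groups, at 9960 to 35000 CPM in shCon and 11900 to 56800 CPM in shYap libraries. Timp1 was at 29.4 to 36.3 CPM in shCon libraries and at 79.2, 41.3, 28.0 and 45.9 CPM in shYap libraries (0.52 ± 0.27, adjusted p = 0.559). Timp3 was at 24.8 to 46.2 and 24.9 to 41.2 CPM (-0.16 ± 0.22, adjusted p = 0.86).

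Of the gelatinases, Mmp9 was at 196, 190, 200 and 212 CPM in shCon libraries and at 93.9, 143, 165 and 176 CPM in shYap libraries, which did not overlap (log2 fold change -0.46 ± 0.19, edgeR adjusted p = 0.409). Mmp2 was at 201, 165, 154 and 31.1 CPM in shCon and at 102, 95.4, 105 and 56.6 CPM in shYap libraries (-0.62 ± 0.48, adjusted p = 0.714). The lone low value of shCon replicate 4 kept the groups of Mmp2 overlapping. Macrophage markers, 8 in number and a textbook source of Mmp9, summed to 2140 to 2450 CPM in shCon and 1590 to 2250 CPM in shYap libraries.

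The ratio of summed TIMP to summed MMP level per length was 0.811, 0.779, 0.772 and 0.816 in shCon libraries and 2.33, 1.36, 1.03 and 1.22 in shYap libraries. The shCon libraries were nearly equal, and the ratio was above 1 in 4 of 4 libraries labelled shYap. TIMP genes made up 31.4 ± 0.585% of the summed level in shCon and 42.1 ± 8.96% in shYap libraries, and MMP genes 39.6 ± 1.35% and 29.6 ± 4.21% (SD, n = 4). Timp2 alone held 22.2 ± 0.592% and 30.4 ± 4.53% of the summed level. The 8 fibroblast markers summed to 4890 to 5500 CPM in shCon libraries and to 2680, 3400, 5090 and 5240 CPM in shYap replicates 1 to 4. The part of fibroblasts in the ratio was not tested, and no test was made of the sums over the members.

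The other members with small p were Adam1a, a sperm ADAM, at 1.90 to 2.67 CPM in shCon and 0.454 to 1.32 CPM in shYap libraries (-1.28 ± 0.35, edgeR adjusted p = 0.222), and Adamts14, a procollagen N-proteinase, at 22.7 to 32.8 and 29.4 to 42.2 CPM (0.52 ± 0.17, adjusted p = 0.307). Adam1a overlaps Mapkapk5 on the same strand, so its few reads may be shared. Adam19, a protease of neuregulins chosen for mention after its values were seen, was at 71.0 to 88.3 CPM in shCon and 43.2 to 66.8 CPM in shYap libraries, without overlap (-0.46 ± 0.16, adjusted p = 0.339). Adamts1 was at 31.0 to 39.6 CPM in shCon libraries and at 50.7, 55.1, 173 and 34.5 CPM in shYap libraries (1.21 ± 0.46, adjusted p = 0.386), and Adamts6 at 11.7 to 29.5 and 10.4 to 22.9 CPM.

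The remaining named members overlapped between these groups. Mmp14 was at 230 to 272 CPM in shCon and 206 to 376 CPM in shYap libraries, Adam10 at 101 to 126 and 94.3 to 119 CPM, and Adam17 at 84.2 to 97.8 and 64.2 to 115 CPM. Mmp28 was at 4.63 to 13.2 and 5.60 to 13.7 CPM, Adamts4 at 20.5 to 37.7 and 17.4 to 32.7 CPM, and Mmp15 at 11.7 to 62.5 and 10.2 to 35.9 CPM. Adam11 was at 5.92 to 9.15 and 3.63 to 10.4 CPM, and Adam12 at 5.11 to 8.76 and 1.99 to 10.8 CPM. Mmp27, Adamts8 and Adamts15 stayed at or under 2.50 CPM in every library of the table. The 16 untested members of this table had group means of at most 0.490 CPM. In the 7 lists of further pathway genes, 0 of the 64 genes tested passed in edgeR.

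Calls in this table depended on 2 libraries. Without shCon replicate 4 and shYap replicate 3, each the least like the rest of its group over all genes, edgeR called 1255 genes (7.54%) and 6 members. Adam23 (1.03) and Adamts14 (0.63) were then higher, and Mmp25 (-2.22), Mmp10 (-2.16), Adamts6 (-1.11) and Mmp2 (-1.03) lower (adjusted p = 0.0104 to 0.0464). Timp2 was at 0.56 in that fit (adjusted p = 0.0918).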

How the data were processed

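The authors deposited estimated counts for each gene in 2 tables. STAR 2.7.3a, Partek and DESeq2, with GRCm38 and mm10, are named per the submitters' processing notes. Annotation and strand are not given in the sources used. Members that overlap other genes may therefore share reads with them, and not every such overlap is reported here. Members, gene lists and tests were chosen with earlier results of these data known.

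Estimated counts were rounded, and each table was fitted alone in edgeR 4.0.16 (R 4.3.3): robust quasi-likelihood F test after filterByExpr and TMM scaling, adjusted p under 0.05 over all genes. CPM use TMM-scaled library sizes. The standard error is the size of the log2 fold change over the root of F. Levels per kb divide by the exon union of GENCODE M21, which matched 97.4% and 97.1% of genes and all members. Position matches for 36 of 43 promoter windows were found in GENCODE transcript starts, and 38 of 61 members had a window. ADAM classes come from textbook knowledge, since no protein table was used here.

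Members printed with values are every Timp gene, called MMP, ADAM and ADAMTS genes with a log2 fold change of at least 1 in size, Mmp2, Mmp9, Mmp14, Adam10, Adam17, Adamts1, and the 5 of smallest p in the table without calls. Further lists gave up to 3 genes by p. Macrophage, Kupffer, stellate and endothelial markers were summed in the same way.

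Alternatives were DESeq2 1.42.0, limma 3.58.1 voom, RLE and upper quartile factors, no filter or 1 CPM, the replicate number as a block, the closest HFD libraries summed and each library left out. Leaving out LFD replicates 1 and 5, or shCon replicate 4 with shYap replicate 3, was chosen after seeing the data. The labels do not state whether replicate numbers pair the samples. Deviations from the group mean correlated between same-numbered libraries at -0.5 to 0.31 in the diet table and -0.05 to 0.18 in the other. Such values cannot show whether samples were paired. The columns of shYap replicates 3 and 4 are numbered 4 and 5 in the table. On simulated counts, edgeR recovered 62.2% of 2-fold and 81.8% of 4-fold changes in the diet design (16340 genes simulated). In the hairpin design (16571 genes simulated) it recovered 38.1% and 79.4%. Only a small part of these genes was changed, and no outlying library was simulated. The shares are therefore not the power of the test in the real tables.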

Additional observations from a re-analysis of the deposited data

Results flagged for a closer look

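Levels of 35 named members were checked within each group for a single library far from the rest, by the gap to its nearest neighbour over the group's range. Of 136 groups, 14 held such a library, at a limit that chance passes about 1 time in 20. Some of these genes were chosen after their values were seen, and genes of the same library are not independent. The count can therefore not be compared with that rate.

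In the libraries labelled shYap, replicate 3 stood above the other 3 in 5 genes. It held 173 CPM of Adamts1 (others 34.5 to 55.1), 376 CPM of Mmp14 (206 to 217), 166 CPM of Adam9 (96.5 to 106), 22.9 CPM of Adamts6 (10.4 to 12.0) and 9.07 CPM of Mmp8, the neutrophil collagenase (1.52 to 2.27). Among shCon libraries, replicate 4 stood above the rest with 38.9 CPM of Mmp3 (others 6.11 to 6.91), 37.7 CPM of Adamts4 (20.5 to 21.2) and 13.2 CPM of Mmp28 (4.63 to 5.86). Replicate 2 held 1.62 CPM of Mmp27 (0.872 to 0.952).

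In the diet table LFD replicate 2 held 1.04 CPM of Adamts8 (others 0.163 to 0.367) and 4.98 CPM of Mmp8 (0.961 to 1.42), and LFD replicate 5 held 4.64 CPM of Mmp28 (1.31 to 2.07). HFD replicate 1 was low in Adamts6 at 12.5 CPM (16.1 to 17.4), and HFD replicate 2 held 0.455 CPM of Adamts13 (0.0978 to 0.199).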

How the results depend on the processing

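Timp1, Timp2, Adamts1, Adamts4, Adamts6, Adamts15, Mmp7, Mmp13, Mmp28 and Adam17 kept direction and call in HFD against LFD under every alternative that could be fitted for them. Members called there numbered 12 of 44 (10 higher, 2 lower) with the replicate number as a block, when 4929 genes (30.2%) were called in all. They numbered 12 of 47 (9 higher) with the closest HFD libraries summed, when 4233 genes (25%) were called in all. The block took the calls of Timp3, Adam8, Adam11, Adam12, Adamts8, Mmp14 and Mmp15 (adjusted p = 0.0566 to 0.108) and left none in shYap against shCon. Leaving out 1 library gave 5523 to 7253 genes and 14 to 21 members, 11 to 15 higher and 2 to 6 lower (2 lower without LFD replicate 1). Between shYap and shCon, DESeq2 called 410 genes and 4 members (1 higher, 3 lower), leave-one-out fits 0 to 94 genes (94 without shCon replicate 4, 1 without shYap replicate 4) and 0 to 1 members (0 higher, 0 to 1 lower), and the fit without shCon replicate 4 and shYap replicate 3 called 1255 genes and 6 members (2 higher, 4 lower). Yap1 ran from -0.063 to 0.007 (log2) in the leave-one-out fits.

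Some values that did not pass changed sign, and the cause was not tested. In HFD against LFD, leave-one-out fits ran from -0.049 to 0.273 for Adam1a and from -0.586 to 0.375 for Mmp8. Without LFD replicates 1 and 5, Adam10 was -0.028, Adamts14 -0.004 and Mmp19 0.163. For shYap against shCon, Adam15 was -0.016 in limma voom and with the replicate block, and Adam12 0.002 without a filter. Leave-one-out fits there ran from -0.314 to 0.004 for Timp3, -0.041 to 0.375 for Adam11, -0.414 to 0.296 for Adam12, -0.148 to 0.178 for Adam15, -0.138 to 0.549 for Adamts15, -0.26 to 0.183 for Adamts4, -0.268 to 0.052 for Mmp14, -0.816 to 0.133 for Mmp15, -0.133 to 0.407 for Mmp27 and -0.127 to 0.663 for Mmp28. Without shCon replicate 4 and shYap replicate 3, Adam12 was 0.462, Mmp15 0.371, Adam15 -0.116 and Adamts13 0.061.

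Upper quartile factors moved the median of all genes to 0.07 and RLE factors to -0.03 (log2) in HFD against LFD, and the split of calls over all genes from 3178 higher and 3532 lower to 3700 and 2999 with upper quartile factors, with 15 higher and 4 lower members under both. Totals of 8 counts for Mmp7 in LFD, 41 for Mmp27 in HFD and 38 for Adamts8 in LFD limit those genes.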
